A study of Homo sapiens with 2 samples.

Results

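The 10 genes described here encode the core of the ATF4, CHOP and ATF3 stress transcription programme and its feedback. They are ATF4, DDIT3, ATF3, TRIB3, PPP1R15A, CHAC1, NUPR1, DDIT4, CREBRF and ATF5. They were picked by gene symbol from the 43424 symbols that both count files list, with earlier results of these data known. All 10 had reads in both libraries. The series holds 1 library from Hep3B cells given GLE, an extract of Glehnia littoralis, and 1 library from Hep3B cells given dimethyl sulfoxide (DMSO), which its title names as the control. Hep3B is a permanent cell line grown from a human liver cancer, and it has no functional p53. Both libraries carry the genotype label WT, and the sources used here do not say at which dose or for how long the sequenced cells had GLE. Each library was made from 500 ng of total RNA with the QuantSeq kit of Lexogen, whose reads start near the 3′ end of each message.

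In the integrated stress response, kinases that sense protein misfolding, amino acid shortage, heme shortage or double-stranded RNA phosphorylate the translation factor eIF2. Most translation then slows, while the ATF4 message is translated more through upstream open reading frames in its leader. ATF4 is a basic leucine zipper (bZIP) factor that switches on genes for amino acid supply and redox balance and the further factors CHOP, which DDIT3 encodes, and ATF3. PPP1R15A and TRIB3 encode brakes on parts of this response, and CREBRF encodes a brake on a further bZIP factor, CREB3. Because ATF4 is controlled in large part at translation, the message levels below do not measure ATF4 protein.

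The GLE library held 3636351 counts and the control library 5618328. With 1 library per group no test between conditions was possible, so each value is given as CPM, the count per 1000000 counts of the library, scaled by the trimmed mean of M-values (TMM). Intervals are exact 95% intervals for counting error alone, and with no molecular identifiers some reads may be copies of 1 molecule. Variation between cultures or library preparations was not measured and cannot be told apart from an effect of the extract. Mitochondrial ribosomal RNA took 13.2% of GLE counts and 8.52% of control counts. The 8 hepatocyte markers listed for a check of the label, among them ALB and AFP, were detected in both libraries and summed to 5043 CPM in GLE and 8039 CPM in control. Of the leukocyte markers reported, CD3E had 0 counts in both libraries and PTPRC had 3 in GLE and 1 in control, while LYZ and CD68 carried nearly all of a summed level of 464 CPM in GLE and 490 CPM in control. Of 4 endothelial markers, CDH5, KDR and TEK were at 0 in both, and PECAM1 had 1 count in GLE and 36 in control. The 5 fibroblast or stellate cell markers were detected at low level and summed to 18.9 CPM in GLE and 3.46 CPM in control. The part of these shifts in the results below was not tested.

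Of the 10 genes, 8 were at least 2-fold higher in the GLE library and 0 were at least 2-fold lower. Among the 11068 genes with at least 30 counts over both libraries, a ratio of 2 or more was found for 9.54% and one of 0.5 or less for 10.5%. ATF3 was the most raised, followed by DDIT3, CREBRF, CHAC1, PPP1R15A, DDIT4, TRIB3 and ATF4. ATF5 showed no difference detectable at this depth, and NUPR1 was slightly lower in GLE. The median log2 ratio of the 10 genes was 1.99, against -0.04 over all measured genes, whose lower and upper quartiles were -0.50 and 0.43. A ratio of 5 or more was found for 5 of the 10 genes and for 147 of the 11068 measured genes (1.33%). Together the 10 genes took 2753 CPM in GLE and 964 CPM in control, a ratio of 2.86 (2.76 to 2.95). Without ATF4, which supplied 3368 of the 9736 summed GLE counts and 2518 of the 5572 summed control counts, the sums were 1801 CPM in GLE and 529 CPM in control, a ratio of 3.41 (3.26 to 3.56).

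**Figure D1:**
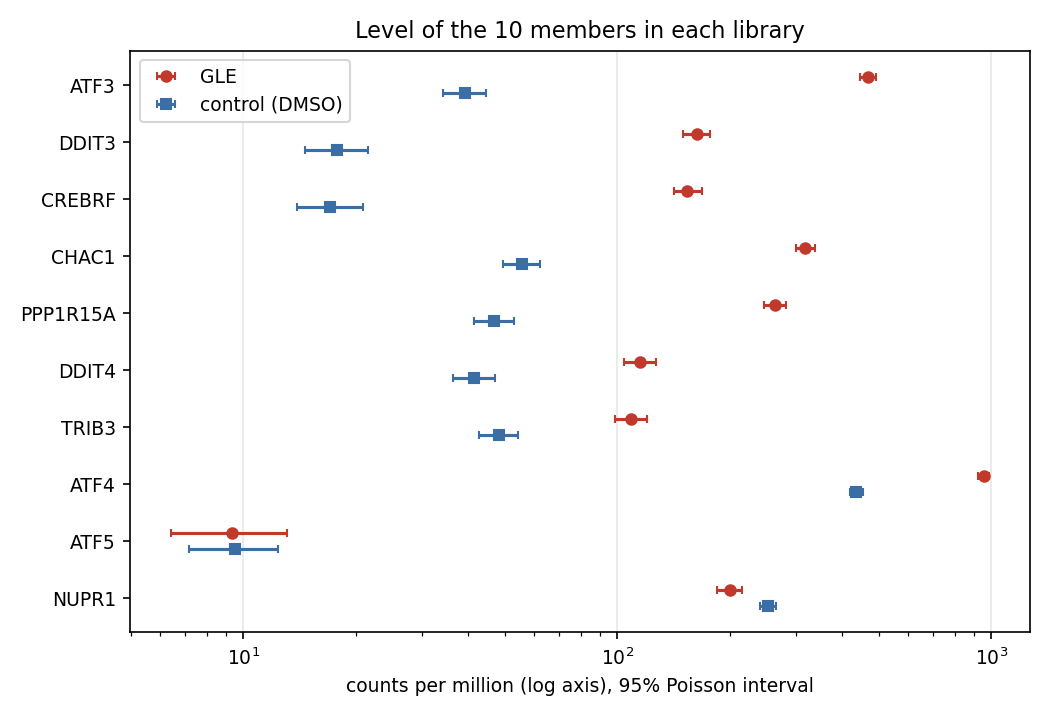
Level of each of the 10 genes in CPM on a log axis, with GLE as circles above and control as squares below, and bars for the 95% Poisson interval of the count. The intervals of the 2 libraries lie apart for ATF3 (467 CPM in GLE, 39.1 CPM in control) and for 8 other genes, and overlap for ATF5.

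Promoter sequence was available from RefSeq (GRCh38.p14) for 9 of the 10 genes, as windows from 250 bases before to 50 bases after a start site. Both strands of these windows were searched for 4 motifs bound by factors of these families. The 9 genes had 16 windows, and all 27305 genes with a window had 35116. The shares below are of genes with a match in any window, so genes with more windows had more chances to match. TGATGNAA is the core of the composite element that ATF4 binds with C/EBP partners. It was found in 1 of the 2 windows of ATF3, in the window of CHAC1, and in those of 4.46% of all 27305 genes with a window. TGACGTCA, the palindromic cyclic AMP response element bound by ATF and CREB factors, was found for PPP1R15A and for 2.25% of all genes. TGANTCA, which covers the AP-1 element bound by JUN, FOS and ATF family dimers, was found for DDIT3 and ATF5 and for 9.37% of all genes. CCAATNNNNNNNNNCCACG, the endoplasmic reticulum (ER) stress element, was found for none of the 9 genes and for 0.0916% of all genes. No match of these motifs overlapped another in the windows of the 10 genes. The 4 stretches below belong to the genes with a ratio of at least 5 whose window held a match. They are 100 bases each, end before the start site, read 5′ to 3′ on the strand of the gene, and have the match in capitals. CREBRF, also above 5-fold, had no match in its window. A match describes these letters and was not tested as a binding site.
PPP1R15A, chr19:48872317-48872416, plus strand, match 58 to 51 bases before the start: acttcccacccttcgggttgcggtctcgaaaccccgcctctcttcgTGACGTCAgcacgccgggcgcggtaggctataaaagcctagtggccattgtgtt
CHAC1, chr15:40953221-40953320, plus strand, match 209 to 202 bases before the start, read on the opposite strand: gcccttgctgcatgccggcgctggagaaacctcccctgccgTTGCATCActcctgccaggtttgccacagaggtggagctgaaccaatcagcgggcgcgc
ATF3, chr1:212565170-212565269, plus strand, match 191 to 184 bases before the more upstream of its RefSeq starts: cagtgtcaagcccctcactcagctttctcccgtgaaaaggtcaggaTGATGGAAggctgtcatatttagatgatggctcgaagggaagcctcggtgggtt
DDIT3, chr12:57520665-57520764, minus strand, match 241 to 235 bases before the more downstream of its RefSeq starts: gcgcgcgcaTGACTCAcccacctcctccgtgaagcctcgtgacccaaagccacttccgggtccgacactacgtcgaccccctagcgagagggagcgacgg

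ATF4, the master factor of the response on chromosome 22 (39520559 to 39522686, GRCh38.p14), had 3368 counts in GLE and 2518 in control. These correspond to 953 CPM (921 to 985) in GLE and 436 CPM (419 to 453) in control. The ratio was 2.19 (2.08 to 2.30), and its whole interval lay above 2. Of all measured genes, 7.53% had a higher ratio.

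DDIT3 encodes CHOP, a C/EBP family factor that forms dimers with ATF4 and other bZIP proteins and promotes cell death when ER stress persists. Located on chromosome 12 (57516588 to 57520517), it had 578 counts in GLE and 103 in control, or 163 CPM (150 to 177) in GLE and 17.8 CPM (14.6 to 21.6) in control. Its ratio of 9.17 (7.42 to 11.4) was exceeded by 46 of the 11068 measured genes. The 3′ end of DDIT3 overlaps the 3′ end of MARS1, a tRNA synthetase gene on the opposite strand, by 65 bases, and the sources used here do not say whether counting used strand. MARS1 itself had 526 counts in GLE and 509 in control, a ratio of 1.69 (1.49 to 1.91). The DDIT3 ratio was 5.42 times that of MARS1 (4.24 to 6.99). The span of a further coding entry, LOC128125814, shares 2769 bases with that of DDIT3. This entry had 0 counts in both libraries, and how reads in shared bases were counted is not known.

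ATF3 encodes a stress-induced bZIP factor that represses or activates targets according to its partner. It lies on chromosome 1 (212565407 to 212620777) and had 1653 counts in GLE and 226 in control. Its level was 467 CPM (445 to 491) in GLE and 39.1 CPM (34.2 to 44.6) in control. The ratio of 12.0 (10.4 to 13.8) was the highest of the 10 genes, and 33 measured genes (0.298%) exceeded it.

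ATF5, a close relative of ATF4 tied to the mitochondrial stress response, is on chromosome 19 (49928906 to 49933935). It had 33 counts in GLE and 55 in control, or 9.33 CPM (6.42 to 13.1) in GLE and 9.52 CPM (7.17 to 12.4) in control. The ratio was 0.980, and its counting interval of 0.617 to 1.54 left room for differences of either sign. With 88 counts in all it was the thinnest measurement of the set. ATF5 overlaps the start of NUP62, a nuclear pore gene on the opposite strand, by 599 bases. NUP62 had 323 counts in GLE and 834 in control, a ratio of 0.633 (0.555 to 0.720).

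Among the brakes, PPP1R15A encodes GADD34, the stress-inducible subunit that directs protein phosphatase 1 to eIF2 and restores translation. It lies on chromosome 19 (48872421 to 48876058) and had 934 counts in GLE and 271 in control. The level was 264 CPM (247 to 282) in GLE and 46.9 CPM (41.5 to 52.8) in control, a ratio of 5.63 (4.91 to 6.47). Its constitutive paralog PPP1R15B, which does the same in unstressed cells, was also higher, with 422 counts in GLE and 271 in control and a ratio of 2.54 (2.18 to 2.98). The ratio of PPP1R15A was 2.21 times that of PPP1R15B (1.80 to 2.73).

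TRIB3 encodes a pseudokinase that is induced by ATF4 and CHOP, binds them and limits their activity, and also restrains AKT. On chromosome 20 (380760 to 397559), it had 385 counts in GLE and 279 in control. This gave 109 CPM (98.3 to 120) in GLE and 48.3 CPM (42.8 to 54.3) in control. Its ratio of 2.25 (1.93 to 2.64) was above 2 with a lower bound under it, so it was the 1 gene of the 8 whose whole interval did not clear 2-fold. The whole interval lay at or above 2 for 3.82% of all measured genes. The Tribbles paralog TRIB1, which directs degradation of C/EBP alpha, had 124 counts in GLE and 345 in control, 1.70-fold lower in GLE (1.38 to 2.11). The TRIB3 ratio was 3.83 times the TRIB1 ratio (2.95 to 5.01). TRIB2 had 2 counts in GLE and 4 in control, too few to compare.

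CREBRF encodes a factor that binds CREB3, a bZIP factor anchored in the ER membrane, and promotes its turnover. It is on chromosome 5 (173056352 to 173139284) and had 546 counts in GLE and 99 in control. The level was 154 CPM (142 to 168) in GLE and 17.1 CPM (13.9 to 20.9) in control. Its ratio of 9.01 (7.26 to 11.3) was exceeded by 48 measured genes.

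CHAC1 encodes an enzyme that degrades glutathione and is a target of ATF4 and CHOP. On chromosome 15 (40953471 to 40956512), it had 1124 counts in GLE and 321 in control. Its level was 318 CPM (300 to 337) in GLE and 55.6 CPM (49.6 to 62.0) in control, a ratio of 5.72 (5.05 to 6.50). CHAC2, its constitutive relative, had 18 counts in GLE and 43 in control, and its ratio of 0.684 (0.371 to 1.21) included 1. The CHAC1 ratio was 8.35 times that of CHAC2 (4.64 to 15.6).

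DDIT4 encodes REDD1, which lowers mTORC1 signalling through the TSC complex under stress. On chromosome 10 (72273924 to 72276036), it had 408 counts in GLE and 239 in control. This gave 115 CPM (104 to 127) in GLE and 41.4 CPM (36.3 to 47.0) in control, a ratio of 2.79 (2.37 to 3.29). Its paralog DDIT4L had 6 counts in GLE and 8 in control. NUPR1 encodes a small chromatin-associated stress protein and, like ATF5, was not raised in GLE. It lies on chromosome 16 (28532708 to 28538974) and had 707 counts in GLE and 1461 in control, or 200 CPM (185 to 215) in GLE and 253 CPM (240 to 266) in control. It was 1.26-fold lower in GLE (1.16 to 1.39). This was the 1 gene of the 10 whose interval lay below 1, as it did for 30.1% of all measured genes, while 8 of the 10 had an interval above 1, as did 27.7% of all measured genes. NUPR2 had 0 counts in both libraries.

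**Figure D2:**
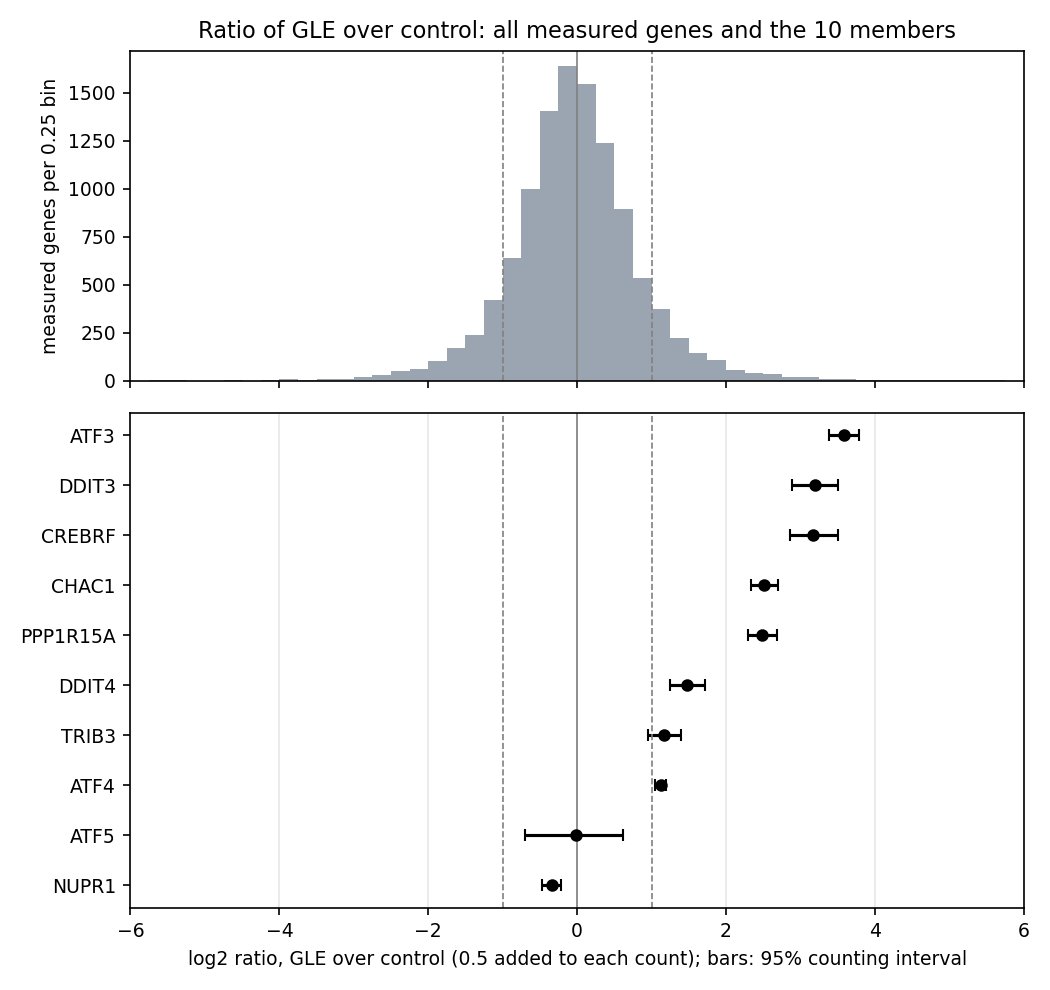
Upper panel, number of measured genes by log2 ratio of GLE over control in bins of 0.25. Lower panel, log2 ratio of each of the 10 genes with its 95% counting interval. Dashed lines mark 2-fold either way. ATF3, DDIT3, CREBRF, CHAC1 and PPP1R15A lie in the sparse right tail, and ATF5 and NUPR1 near the centre. DDIT4 (log2 ratio 1.48), TRIB3 (1.17) and ATF4 (1.13) lie past the 2-fold line, which the interval of TRIB3 crosses.

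The counts resolved the order of the 10 ratios in part. In a comparison of 2 genes within the same libraries the scaling cancels, so the ratio of their ratios has an exact interval that depends on their counts alone. Of the 9 neighbouring pairs in the order of ratios, 4 had an interval that excluded 1. The ATF3 ratio was 1.30 times that of DDIT3, with an interval of 1.003 to 1.69 that just excluded 1. DDIT3 and CREBRF could not be told apart (1.02, 0.745 to 1.39), nor could CHAC1 and PPP1R15A (1.02, 0.842 to 1.23). CREBRF stood 1.57 times above CHAC1 (1.22 to 2.04), and PPP1R15A 2.02 times above DDIT4 (1.63 to 2.50). DDIT4 and TRIB3 (1.24, 0.985 to 1.55), TRIB3 and ATF4 (1.03, 0.874 to 1.22) and ATF5 and NUPR1 (1.24, 0.772 to 1.96) had intervals that included 1. ATF4 stood 2.23 times above ATF5 (1.42 to 3.55).

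Set against ATF4 itself, 6 of the other 9 genes had a larger ratio with an interval above 1, and 2 had a smaller ratio with an interval below 1. ATF3 exceeded ATF4 by 5.47 times (4.71 to 6.37), DDIT3 by 4.19 times (3.37 to 5.26) and CREBRF by 4.12 times (3.30 to 5.19). DDIT4 exceeded it by 1.28 times (1.08 to 1.52). ATF5 was at 0.449 (0.281 to 0.706) and NUPR1 at 0.362 (0.326 to 0.402) of the ATF4 ratio.

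**Figure D3:**
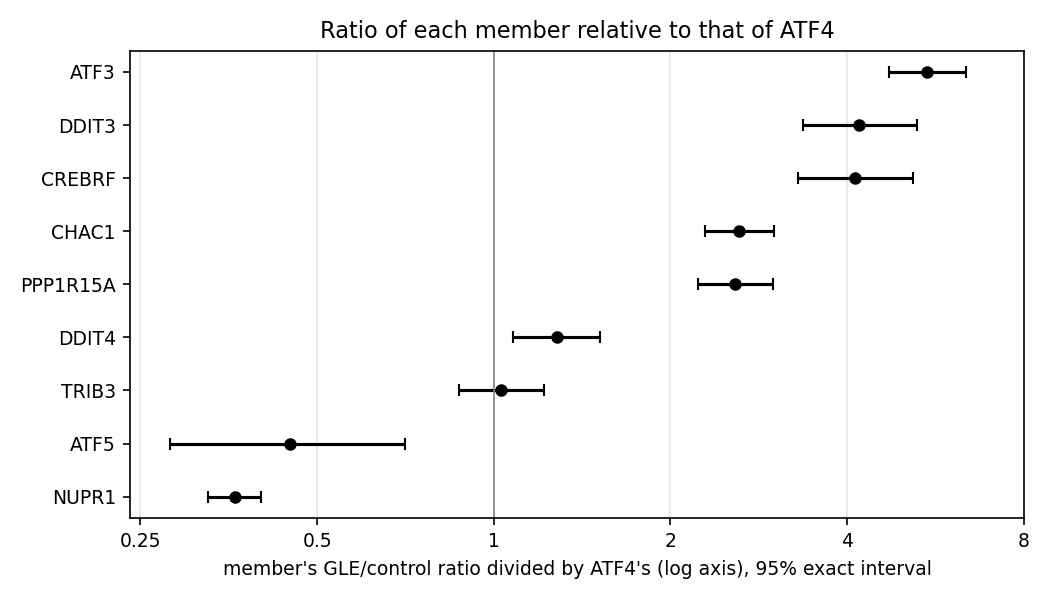
Ratio of GLE over control of each gene divided by that of ATF4, on a log axis with 95% exact intervals. Values above 1 mean a larger ratio than ATF4. CHAC1 (2.62, 2.29 to 3.0) and PPP1R15A (2.58, 2.23 to 2.99) overlap each other and lie between DDIT4 and the group of ATF3, DDIT3 and CREBRF.

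The messages of the 10 genes were compared with those of other coding genes in GENCODE 29, taking 1 principal transcript a gene. They were short in exons. Of the 10, 9 had at most 4 exons, as had 18.5% of 10100 measured coding genes, and CREBRF with 9 exons was the exception. An ATG upstream of the coding start was present in the leader of 8 of the 10, against 51.1% of measured coding genes, and the leaders of the 10 were longer, with a median of 268 bases against 191. ATF4 had 7 in its chosen transcript, which has a leader of 882 bases. DDIT3 and TRIB3 had 3 each, PPP1R15A, NUPR1 and ATF5 had 2 each and CREBRF and ATF3 had 1 each. The heptamer TATTTAT, a core of AU-rich elements that are known to shorten the life of messages, was present after the stop codon in ATF3, DDIT3, CREBRF, CHAC1 and PPP1R15A. These are the 5 genes with a ratio of at least 5, and the heptamer was absent from the other 5, a split noticed after the values were seen. The shorter motif ATTTA did not divide the genes this way. It was present in 6 of the 10, those 5 and NUPR1 with 5 copies, and in 70.4% of measured coding genes. The heptamer was present in 33.2% of measured coding genes and, leaving out the 10 genes, in 41 of the 93 with a ratio of at least 5 (44.1%). Among coding genes with the heptamer 11.9% had a ratio of 2 or more and 8.96% one of 0.5 or less, against 7.12% and 9.86% without it. Genes with the heptamer also had longer 3′ untranslated regions, with a median of 2449 bases against 712 without it. The median was 848 bases in the 10 genes and 840 in the 98 coding genes with a ratio of at least 5, against 1106 in those under it. Message stability was not measured. These counts depend on the transcript chosen, since several of the 10 genes have more than 1 start or end.

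The related lists described from here on were also chosen with earlier results of these data known. Upstream of ATF4, the 22 genes for eIF2 kinases, eIF2, eIF2B and their regulators lay on both sides. Ratios of 2 or more were found for 3 of them (13.6%, against 9.54% of all measured genes) and ratios of 0.5 or less for 0 (against 10.5%), and the median log2 ratio was 0.15. Besides PPP1R15B, these were NCK1, an adaptor that binds eIF2 and PP1, at 2.47 (1.60 to 3.85), and OMA1, the mitochondrial protease that starts the DELE1 signal, at 2.51 (1.5 to 4.29). OMA1 had 40 counts in GLE and 26 in control. DELE1 itself, named after its value was seen, had 38 counts in GLE and 115 in control, 1.85-fold lower in GLE (1.27 to 2.75). DNAJC3, an inhibitor of PERK, was 1.90-fold higher (1.65 to 2.19). GCN1, the ribosome-bound activator of GCN2, was 1.76-fold lower (1.56 to 1.99), and EIF2AK1, the heme-sensing kinase HRI, 1.48-fold lower (1.38 to 1.59). The other kinase genes, looked up after the list was seen, had ratios of 1.85 (1.17 to 2.94) for EIF2AK3, which encodes PERK, 0.878 (0.650 to 1.18) for EIF2AK4, which encodes GCN2, and 0.798 (0.641 to 0.990) for EIF2AK2, which encodes PKR.

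Among 24 measured bZIP partners and relatives of ATF4, CHOP and ATF3, a ratio of 2 or more was found for 3 (12.5%) and one of 0.5 or less for 2 (8.33%), both shares near those of all measured genes, around a median log2 ratio of 0.14. MAFG, a small MAF protein, was 4.20-fold higher, with 867 counts in GLE and 337 in control (3.70 to 4.78). JUN, a frequent dimer partner of ATF3, had 1943 counts in GLE and 988 in control, a ratio of 3.21 (2.98 to 3.47). FOSL2 had a ratio of 2.93 (1.74 to 5.04), and MAFF one of 2.0 (1.62 to 2.47), just under the 2-fold line before rounding. Liver factor CEBPA was 2.80-fold lower (2.49 to 3.16) and CEBPD 2.23-fold lower (1.91 to 2.60). Of the paralog list, ATF6 had a ratio of 1.72 (1.45 to 2.03) and JDP2, which is related to ATF3, one of 0.817 (0.495 to 1.32). The 5 measured paralogs had a median log2 ratio of -0.28, with 1 at least 2-fold higher.

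Downstream of ATF4, the 22 measured genes of the amino acid supply list had a median log2 ratio of 0.19. Of these, 3 were past 2-fold towards GLE (13.6%, against 9.54% of all measured genes) and 0 past it towards control. CTH, which makes cysteine from cystathionine, had 133 counts in GLE and 33 in control, a ratio of 6.59 (4.47 to 9.96). SESN2, a leucine sensor that restrains mTORC1, had 1415 counts in GLE and 546 in control, a ratio of 4.23 (3.83 to 4.68). SLC7A11, the cystine transporter, was 3.15-fold higher (2.76 to 3.6) and its partner subunit SLC3A2 1.61-fold higher (1.47 to 1.77). SLC1A5, a glutamine transporter, was 1.99-fold lower (1.66 to 2.39) and the leucine transporter SLC7A5 1.46-fold lower (1.10 to 1.97). SLC1A5 passed 2-fold towards control when libraries were scaled by total counts, with a log2 ratio of -1.07, or by upper quartiles, with -1.02. The interval lay above 1 for 10 of the 22 measured genes of this list and below 1 for 4 of the 22, against 27.7% and 30.1% of all measured genes.

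The list of CHOP targets and secreted stress factors had 6 measured genes, of which 1 was at least 2-fold higher (16.7%), with a median log2 ratio of 0.44. That gene was BCL2L11, which encodes the BH3-only protein BIM, with 155 counts in GLE and 66 in control and a ratio of 3.84 (2.86 to 5.20). GDF15, a stress-secreted hormone, had a ratio of 1.80 (1.69 to 1.93), and TNFRSF10B, the TRAIL receptor DR5, one of 1.71 (1.40 to 2.08). ERO1A, an ER oxidase known as a CHOP target, was 1.30-fold lower (1.13 to 1.49), and VEGFA 1.36-fold lower (1.08 to 1.72). In the ATF6 and XBP1 list, the median over 22 genes was 0.26, with 4 past 2-fold towards GLE (18.2%, against 9.54% of all measured genes) and 0 towards control. They were the ER co-chaperone DNAJB9 at 8.40 (6.32 to 11.3), HERPUD1 of ER-associated degradation at 5.04 (4.33 to 5.88), the translocon subunit SEC61B at 2.09 (1.88 to 2.32) and CRELD2 at 2.06 (1.67 to 2.54). With scaling by total counts 2 of these stayed past 2-fold, since SEC61B and CRELD2 had log2 ratios of 0.98 and 0.96. The ER lectin chaperone CANX was 1.12-fold lower (1.06 to 1.17) and the disulfide isomerase PDIA3 1.34-fold lower (1.21 to 1.48).

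Around DDIT4, 6 of 14 measured mTORC1 pathway genes had a ratio of 2 or more (42.9%, against 9.54% of all measured genes) and 1 a ratio of 0.5 or less, around a median log2 ratio of 0.21. With scaling by total counts 4 passed 2-fold towards GLE and 2 towards control. The 6 genes past 2-fold under TMM included all of the sestrins. SESN3 was at 2.32 (1.54 to 3.51) and SESN1, named after its value was seen, at 2.05 (1.35 to 3.14), beside SESN2. The autophagy kinase ULK1 was at 2.44 (2.17 to 2.73) and the mTORC1 activator RHEB at 2.11 (1.55 to 2.88). RHEB and SESN1 fell under 2-fold with total counts, RHEB at a log2 ratio of 0.99, so all of the sestrins passed 2-fold under TMM but not there. AKT1S1, an mTORC1 inhibitor named after its value was seen, was at 2.45 (1.51 to 4.03). The mTORC1 subunits RPTOR and MLST8 were 2.26-fold (1.58 to 3.31) and 1.93-fold (1.35 to 2.81) lower. Around CHAC1, 2 of 9 measured glutathione genes passed 2-fold towards GLE (22.2%) and 0 towards control, and the list median was -0.12. Besides SLC7A11 this was GCLM, a subunit of the enzyme that limits glutathione synthesis, at 2.99 (2.55 to 3.51). GPX1 was 1.32-fold lower (1.12 to 1.55) and glutathione synthetase GSS 1.31-fold lower (1.06 to 1.62).

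**Figure D4:**
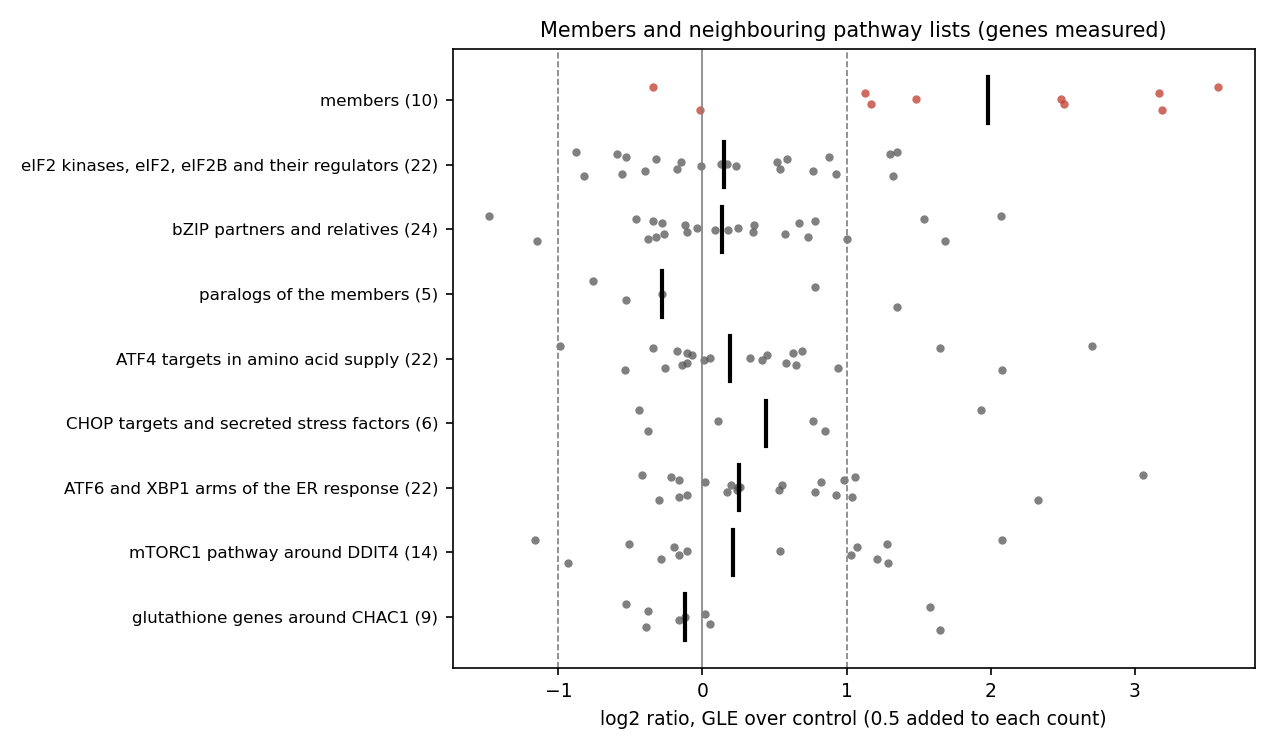
Log2 ratio of GLE over control for each measured gene (points) of the 10 genes and of 8 related lists, with the median as a vertical bar and dashed lines at 2-fold. The number measured is in brackets. The median of the 10 genes is 1.99, and the list medians lie between -0.28 for the paralogs and 0.44 for the CHOP targets.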

How the data were processed

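Each deposited file gives the raw count of every gene symbol in 1 library, and the values are not normalized. The submitters' processing notes name fastp, STAR and HTSeq as tools and GRCh38 as build. The sources used here give no versions, gene annotation or strand setting. Whether reads of overlapping genes on opposite strands were told apart in counting is therefore not known. Counts were scaled over the whole table by TMM in edgeR 4.0.16 (R 4.3.3), with factors of 0.972 for GLE and 1.03 for control. Ratios are GLE over control with exact Clopper-Pearson 95% intervals of the GLE share of a gene's counts, and levels have exact Poisson intervals. Log2 ratios had 0.5 added to each count. Genes with at least 30 counts over both libraries count as measured, and 2-fold is a description, not a test. The quasi-likelihood test of edgeR needs replicates and was not used. Ratios of ratios are conditional odds ratios (SciPy 1.17.1). The 10 genes, the 8 pathway lists and 4 marker lists were chosen with earlier results of these data known, and the motifs and transcript features after the counts were seen. Named from each list were all measured paralogs and otherwise up to 4 higher and up to 2 lower genes by the interval bound nearest to 1. Gene positions and promoters come from RefSeq (GRCh38.p14) and transcripts from GENCODE 29. The computation was tested on simulated data.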

Additional observations from a re-analysis of the deposited data

How the results depend on the processing

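No paired analysis was possible because each group has 1 library, and no library could be left out. Of 60 values of the 10 log2 ratios under 6 other settings, 59 stayed within their main counting interval. Those settings were total counts, upper quartiles or the size factors of DESeq2 1.42.0 as scaling, library sizes without mitochondrial genes and the 20 most abundant genes, 2 added before the logarithm, and thinning to the shallower library. The exception was ATF4 at 1.05 with total counts, against 1.13, and ATF4 was still above 2-fold. Across these settings ATF3 ranged from 3.50 to 3.59, DDIT3 from 3.11 to 3.36, TRIB3 from 1.09 to 1.35 and NUPR1 from -0.42 to -0.32, while ATF5 ran from -0.10 to 0.24 and so has no direction. The same 8 genes of the 10 passed 2-fold under all of them and under each minimum count, and 7 when the whole interval had to pass. With total counts the median of all measured genes was -0.12, and 914 genes were higher and 1352 lower, against 1056 higher and 1164 lower with TMM. More genes were higher than lower after thinning, at 1052 and 950, and with 2 added before the logarithm, at 1037 and 1023. The counts over all genes moved with the minimum, to 1655 higher and 1840 lower at 10 counts, 613 and 579 at 100 counts, and 4224 and 3989 with no minimum, as the number of genes tested changed. They were 423 higher and 316 lower when the whole interval had to pass. The settings were applied to the lists after the data were seen. Of 96 counts of list genes past 2-fold, 4 moved by over 1.5 times. With total counts 2 ATF6 and XBP1 genes were higher, against 4, and 2 mTORC1 genes lower, against 1, and with total counts or upper quartiles 1 amino acid gene was lower, against 0. The 8 list medians each moved by less than the typical counting interval of their genes, and of the 41 named genes in the lists CANX alone left its interval, at -0.24 with total counts.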

Other observations

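ASNS, asparagine synthetase and a widely used readout of ATF4, had 1 count in GLE and 0 in control, under the floor of 3 counts that corresponds to 0.848 CPM in GLE and 0.519 CPM in control. It was singled out after its values were seen. PSAT1, a serine synthesis enzyme that is also an ATF4 target, had 1479 counts in GLE and 1619 in control, a ratio of 1.49 (1.39 to 1.6). ALDH1L2, a mitochondrial folate enzyme in the same list, had 9 counts in GLE and 0 in control, and CBS had 0 in both. The gene annotation used in counting is not given. Whether the counts at or near 0 of ASNS and CBS reflect low message levels was not tested. FGF21, a hepatic hormone of the stress response, had 0 counts in both libraries, so GDF15 was the 1 measured member of the pair of stress hormones in the list.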
